A study of Brassica oleracea var. italica with 2 samples.

Results

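Candidate miRNA sequences that cluster at a repeat on chromosome A06 of the Brassica rapa genome were described in 2 small RNA libraries of broccoli, together with the known miRNA miR2911, which lies in the same repeat. A candidate was included if it had a listed stem-loop starting on A06 between 20 and 20.3 Mb or lying on Scaffold000273. This applied to 24 of the 54 candidate sequences in the deposited tables, with 128 of their 281 stem-loop records. miR2911 was 1 of 169 known miRNA records with counts. The HT library came from the heat-tolerant broccoli line 'B295', and the HS library came from the heat-sensitive line 'BR1 op'. Both are nearly isogenic inbred lines, both were grown at 22 °C, and shoot apexes were sampled at an age of 54 days according to the sample labels. The study's Results and Methods each give a different age from the labels and from each other. The tables hold no mRNA, so the tissue was not checked against markers. There was 1 library per genotype, of 27069903 reads for HT and 26253036 for HS. Every test below therefore compares 2 libraries and not 2 genotypes, has no replicate check, and its intervals cover counting error only.

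Plant miRNAs are cut by a Dicer-like enzyme from an RNA that folds back on itself into a stem-loop, and the cut releases a short duplex of the miRNA and its partner strand, the miRNA*. A locus that makes an miRNA usually gives reads with a fixed 5′ end. miR2911 stands apart from this class. In honeysuckle and other plants it was traced to the large subunit ribosomal RNA, whose genes lie in long tandem repeats, and it is known for its stability in plant extracts. Whether the repeat on A06 holds ribosomal RNA genes was not tested.

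The members were named rep-1 to rep-24 in their order along the repeat, read on the strand of miR2911. The first sequences are shown because they come from the same stretch of the repeat as miR2911. Capitals mark the 13 nt that all of them share, and each sequence is written 5′ to 3′ with the letters of the deposited tables.
miR2911: ggccgggGGACGGACTGGGA
rep-7: gGGACGGACTGGGAacggctc
rep-8: GGACGGACTGGGAacggctct
In the listed genome (Brapa_sequence version 1.1), this copy of miR2911 lies at A06:20182436-20182455 on the minus strand, with rep-7 at A06:20182429-20182449 and rep-8 at A06:20182428-20182448. The read counted as miR2911 differed from the miRBase sequence by G14A, counted from the 5′ end with the miRBase base first. The same 20 nt were found without a mismatch at 7 positions in the listed precursors, 4 on A06 and 3 on Scaffold000273.

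The next set is shown because its 5 members step along the same site with ends shifted by a few nucleotides. Capitals mark the 17 nt shared by all members of the site, which lies at A06:20195321-20195345 in the listed copy.
rep-20: cgacGGGGTATTGTAAGTGGC
rep-21: acGGGGTATTGTAAGTGGCag
rep-22: cGGGGTATTGTAAGTGGCaga
rep-23: cGGGGTATTGTAAGTGGCagag
rep-24: GGGGTATTGTAAGTGGCagag

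The other overlapping members formed 3 sites. In these, capitals mark the stretch shared within each site, of 20 nt in rep-2 to rep-4, 19 nt in rep-14 and rep-15, and 18 nt in rep-18 and rep-19. The study numbers rep-4 as candidate-31, rep-15 as candidate-27, rep-18 as candidate-17 and rep-19 as candidate-25.
rep-2: gcCGGAGGTAGGGTCCAGCGGC
rep-3: cCGGAGGTAGGGTCCAGCGGC
rep-4: CGGAGGTAGGGTCCAGCGGCt
rep-14: agtCAGAATCCGGGCTAGAAGC
rep-15: CAGAATCCGGGCTAGAAGCga
rep-18: aaggCACGTGTCGTTGGCTAAG
rep-19: CACGTGTCGTTGGCTAAGtcc

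The remaining 10 members overlapped no other member by 15 nt or more. Capitals mark bases 2 to 8, the seed, and no seed was repeated among them. Of the members printed above, rep-22 and rep-23 share a seed, since they start at the same base. The study numbers rep-12 as candidate-26.
rep-1: aACGGCTCagccggaggtagg
rep-5: gATTGGCTctgagggctgggc
rep-6: tCGACGGGttcggaactggga
rep-9: cGGGCTTGgcagaatcagcgggga
rep-10: gTGAAATGacttgagaggtgtagaat
rep-11: cGGGTCGAtccgggcggagga
rep-12: tGAATTACtattgcgacgcgg
rep-13: tTCGCACAattggtcatcgcg
rep-16: gTCGGCAAtcgggcggcgggc
rep-17: cTACTGAGggtcggcaatcgg

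Placed together from different copies, the 24 members spanned 1618 nt of the repeat. No single copy in the listed precursors held all of these members. Their 5′ ends were placed relative to the 5′ end of miR2911 by joining listed precursors that lie within 1500 nt of each other in the same copy. All 96 distances obtained in this way gave the same place for the same member, and the listed precursors held 0 conflicting bases over 22654 positions. rep-1 was the outermost member on the 5′ side, at -324 nt, and rep-24 the outermost on the 3′ side, at 1273 nt. With overlaps of 15 nt or more joined, the members made 15 sites, of which 5 held 14 of the members. Of the 24 members, 20 lay on the strand of miR2911 and 4 (rep-6, rep-12, rep-16 and rep-17) on the opposite strand. The place of rep-1 to rep-4 rests on their distance from rep-9 on Scaffold000595, since at A06 they are listed only in an inverted repeat. For each of them this is a single distance, so the agreement above does not check their place. The place of rep-10 rests on its distances from rep-9, rep-11 and rep-12, in a single copy.

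**Figure D1:**
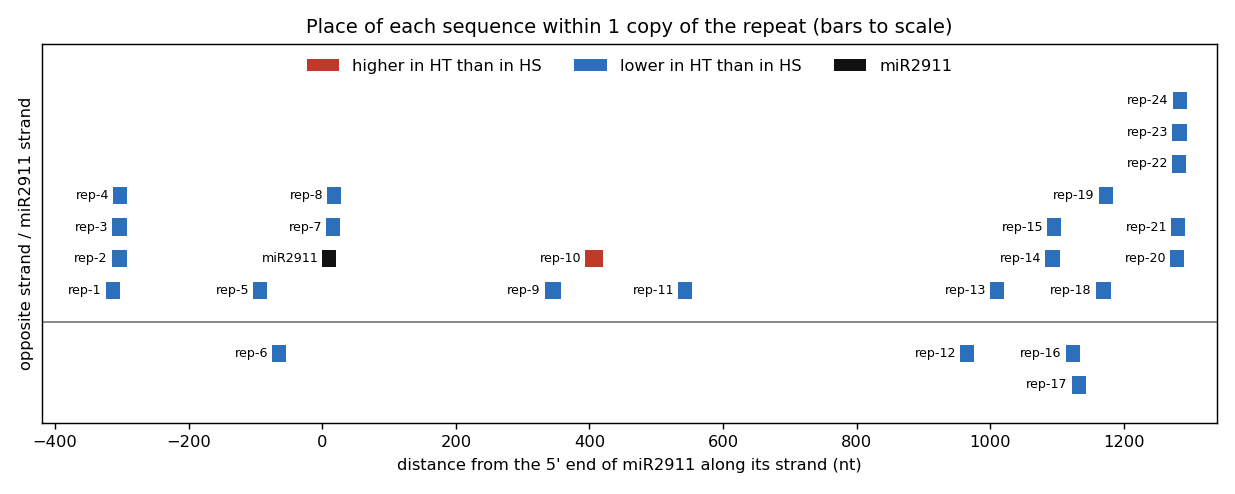
Place of each member and of miR2911 along the repeat, put together from distances in different copies. The x axis gives the distance in nt from the 5′ end of miR2911 along its strand, bars are drawn to scale, those above the line lie on the strand of miR2911 and those below it on the opposite strand, and colour gives the direction of the difference between the HT and HS libraries. The members run from -324 nt to 1273 nt, and rep-10 at 394 nt is the only red bar.

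The listed stem-loops of a member lay at irregular distances. On A06, stem-loops of the members started between 20092988 and 20196687, and the nearest A06 stem-loop of another candidate started at 15702826, outside the window by 4297174 nt. Neighbouring stem-loops of the same member and strand on A06 were a median of 14159 nt apart over 37 spacings. The spacing of 12888 nt occurred 11 times and that of 14159 nt 10 times, while the longest, 75384 nt, occurred 5 times. Not all of these are distances between neighbouring copies, since a spacing can pass over copies in which the member is not listed. The spacings of 12888 nt and 14159 nt passed over no copy seen in the listed precursors. For example, stem-loops of rep-13 started at 20093123 and next at 20168507, with a stem-loop of rep-9 at 20156900 between them. On Scaffold000273 there were only 2 spacings, of 2777 nt (8 times) and 16330 nt (11 times). Of the 128 stem-loops, 59 lay in the A06 window, 37 on Scaffold000273 and 32 elsewhere, all but 1 of these on other scaffolds. The exception was a stem-loop of rep-6 on A02.

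The number of listed stem-loops understated how often a sequence stands in the repeat. For 8 members the tables listed a single stem-loop, but the sequences of 9 members were found at more positions in the listed precursors than they had stem-loops of their own. rep-18 had 1 listed stem-loop and 10 positions, and rep-19 had 1 and 9. Only 1 candidate outside the rule overlapped a member. candidate-30, listed on Scaffold000705 at 2119 to 2189, shared 20 nt with rep-5 and had 212 reads in HT and 556 reads in HS, a fold change (HT/HS) of 0.370 with a 95% interval of 0.314 to 0.434. For candidate-30 too, the study reported that stem-loop quantitative RT-PCR gave a different pattern from sequencing.

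Different members stood in the same listed precursor, but which RNA their reads came from was not tested. The longest run of members stood in the 121-nt precursor listed for rep-15 at A06:20181260-20181380 on the minus strand, which is printed to show this. Capitals mark bases covered by members read on the same strand.
rep-15 precursor: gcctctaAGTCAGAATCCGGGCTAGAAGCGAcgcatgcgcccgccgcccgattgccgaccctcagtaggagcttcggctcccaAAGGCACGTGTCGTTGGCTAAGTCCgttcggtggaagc
It holds rep-14 at bases 8 to 29 and rep-15 at bases 11 to 31. rep-18 follows at bases 84 to 105 and rep-19 at bases 88 to 108. Between these, the opposite strand holds rep-16 at bases 39 to 59 and rep-17 at bases 48 to 68. In all, 6 members stood in this precursor, counting both strands, and 17 of the 24 members had a precursor that held at least 1 other member.

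The members were lower in the HT library than in the HS library, with 1 exception, while miR2911 in their midst had nearly equal levels in both libraries. The 24 members together had 20206 reads in HT and 48342 reads in HS, which is 746 and 1841 TPM, the unit in which the study scales a count to the total of the library. The fold change (HT/HS) of the sum was 0.405, with an exact Clopper-Pearson 95% interval of 0.399 to 0.412. By fold change, 23 members were lower in HT and 1 was higher. At the thresholds that the study used for candidates, unadjusted p under 0.01 (two-sided Fisher's exact test of a sequence against the rest of the library) and a fold change over 2, 20 members were called lower in HT, against 63.0% of all 54 candidates, and 1 was called higher, against 24.1%. In either direction, 21 of 24 members were called, against 87.0% of all candidates. The fold changes that the study prints for its candidates are lower than the ratios of library-scaled counts used here. Its own calls can therefore differ near the threshold. The authors had selected all 54 candidates for a difference between these libraries, so these counts describe the list and do not test it. Scaled to the total over the candidates in place of the library total, 4 members were called and the summed fold change was 0.720. The members made up 42.2% of the candidate reads in HT and 58.7% in HS.

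miR2911, a record that was not selected for a difference, had 1680 reads in HT and 1462 reads in HS (62.1 and 55.7 TPM). Its fold change was 1.11, with a 95% interval of 1.04 to 1.20, unadjusted p = 0.00256 and an adjusted p = 0.0117 over all 169 known records (Fisher's exact test, Benjamini-Hochberg). It was not called at the threshold for known miRNAs, p under 0.001 and a fold change over 2, which 12.4% of the known records passed. Its direction depended on the library size: it was 0.941 after scaling to the trimmed mean of the known records, and 0.894 after scaling to their median ratio. By summed reads it ranked 4 among the 169 known records. The 3 known records nearest to it in reads carry names of the miR166 family, whose mature miRNA targets mRNAs of HD-ZIP III transcription factors. zma-miR166c* had 1885 reads in HT and 1757 reads in HS, gma-miR166j-3p had 1200 in HT and 1364 in HS, and osa-miR166g had 1192 in HT and 1338 in HS. Their fold changes ran from 0.853 to 1.04. No other known record with counts lay in the window or on Scaffold000273.

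**Figure D2:**
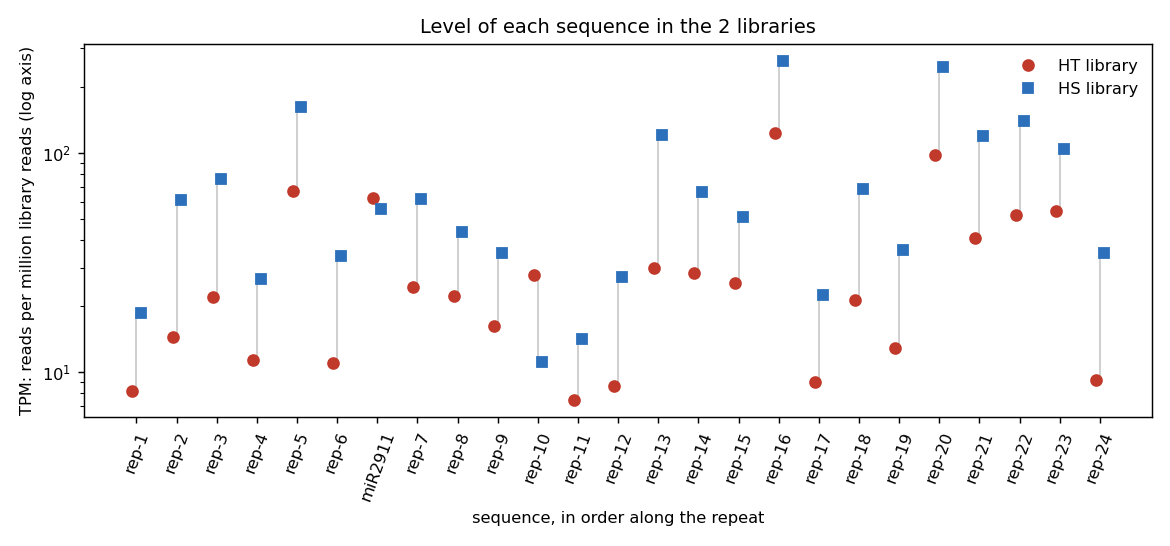
Level in TPM (log axis) of each sequence, in order along the repeat, with circles for the HT library and squares for the HS library, 1 library each. Only rep-10 and miR2911 have the HT circle above the HS square. rep-16 is highest in both libraries, at 124 in HT and 263 in HS.

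The contrast with miR2911 does not depend on library size, because it sets the HT and HS reads of a member against those of miR2911. The ratio differed from that of miR2911 for all 24 members (two-sided Fisher's exact test, adjusted over all 54 candidates), of which 23 were lower and 1 higher. All 54 candidates differed from it too (100%), 75.9% with a lower ratio and 24.1% with a higher ratio, and all these tests share the reads of miR2911. The candidates had been selected for a difference and miR2911 had not. For the 23 lower members, the ratio was between 0.214 (rep-2) and 0.472 (rep-23) times that of miR2911.

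2 of the members come from the same stretch as miR2911. rep-7 shares 14 nt with miR2911 and rep-8 shares 13 nt, and their 5′ ends lie 6 and 7 nt further along the same strand. rep-7 had 660 reads in HT and 1623 reads in HS, a fold change of 0.394 with a 95% interval of 0.360 to 0.432. rep-8 had 602 reads in HT and 1145 reads in HS, a fold change of 0.510 with a 95% interval of 0.461 to 0.563. Both were lower in HT, against a fold change of 1.11 for miR2911. The HT/HS ratio of rep-7 was 0.354 times that of miR2911 (95% interval 0.315 to 0.397, adjusted p = 2.06e-73 by Fisher's exact test), and that of rep-8 was 0.458 times (0.405 to 0.517, adjusted p = 1.87e-37). Both were in the authors' list of sequences lower in HT and miR2911 was in no such list, so these ratios describe the listed reads and that they differ from miR2911 follows in part from the selection.

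**Figure D3:**
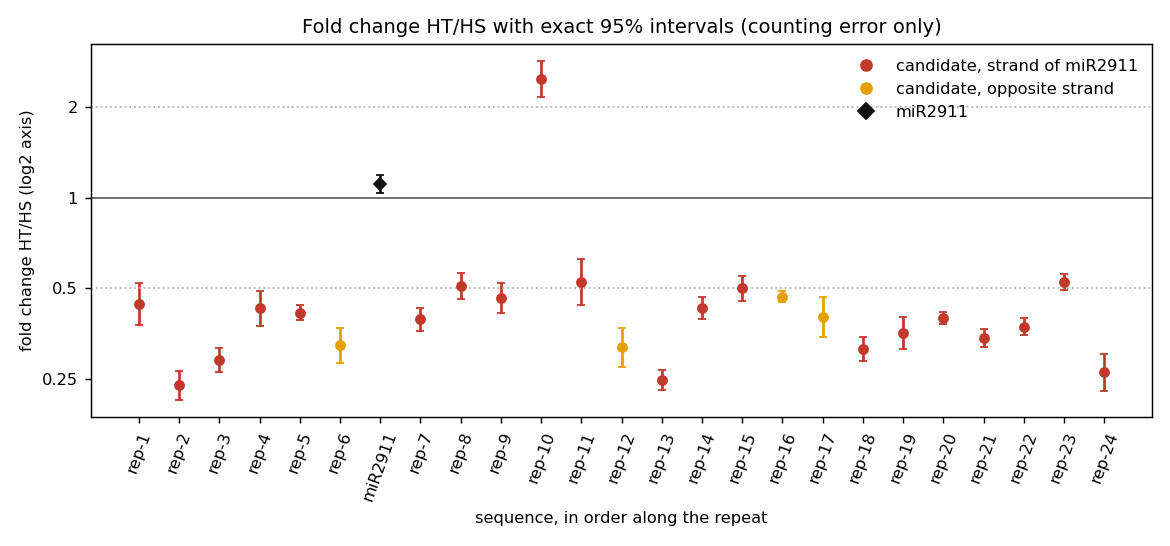
Fold change (HT/HS, log2 axis) of each sequence in order along the repeat, with exact 95% intervals that cover counting error only. Dotted lines mark the threshold of 2 in each direction. miR2911 (diamond) is at 1.11 and rep-10 at 2.49, and the other 23 lie between 0.238 and 0.526.

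The site with most reads was that of rep-20 to rep-24, holding 6894 reads in HT and 16897 in HS, or 34.1% of the member reads in HT and 35.0% in HS. Its fold change was 0.396, with a 95% interval of 0.385 to 0.407. Within it, rep-20 was the most abundant sequence, at 2647 reads in HT and 6455 in HS. rep-21, which starts 2 nt further on, had 1107 reads in HT and 3127 reads in HS. rep-22 had 1413 reads in HT and 3669 in HS. All of these were lower in HT, with fold changes of 0.398, 0.343 and 0.373, and the ratio of rep-20 was 1.16 times that of rep-21 (95% interval 1.07 to 1.26, adjusted p = 7.66e-04 by Fisher's exact test). rep-23 had 1477 reads in HT and 2725 reads in HS, a fold change of 0.526 with a 95% interval of 0.493 to 0.560. rep-24 had 250 reads in HT and 921 reads in HS, a fold change of 0.263 with a 95% interval of 0.228 to 0.303. rep-24 is rep-23 without its first base, and the HT/HS ratio of rep-23 was 2.00 times that of rep-24 (95% interval 1.71 to 2.34, adjusted p = 1.01e-18 by Fisher's exact test). rep-22 and rep-23 start at the same base, rep-23 is 1 nt longer at the 3′ end, and the ratio of rep-22 was 0.711 times that of rep-23 (0.650 to 0.777, adjusted p = 2.18e-13 by Fisher's exact test).

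The site of rep-2 to rep-4, upstream of miR2911, had 1300 reads in HT and 4298 reads in HS, a fold change of 0.293 with a 95% interval of 0.275 to 0.312. rep-2, the 22-nt form, had 393 reads in HT and 1601 reads in HS, and its fold change of 0.238 was the lowest of the members. rep-3, which lacks the first base of rep-2, had 598 reads in HT and 1999 reads in HS, a fold change of 0.290. rep-4 is shifted by a further base, had 309 reads in HT and 698 reads in HS, and had a fold change of 0.429. The HT/HS ratio of rep-4 was higher than that of rep-2, with the ratio of rep-2 over rep-4 at 0.554 (95% interval 0.465 to 0.662, adjusted p = 1.74e-10 by Fisher's exact test). rep-1, which starts 9 nt before rep-2, had 223 reads in HT and 487 reads in HS, a fold change of 0.444.

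Over all sites, 16 pairs of members overlapped by 15 nt or more, and the HT/HS ratios differed in 13 of them (Fisher's exact test, adjusted over the 21 overlapping pairs of all candidates, of which 71.4% differed). The 3 pairs that did not pass were rep-18 with rep-19, rep-20 with rep-22, and rep-21 with rep-22. The ratio of rep-18 was 0.883 times that of rep-19, with an interval of 0.755 to 1.03. The ratio of rep-20 was 1.06 times that of rep-22 (0.986 to 1.15), and that of rep-21 was 0.919 times that of rep-22 (0.837 to 1.01). In each of the 16 pairs both members were lower in HT, and their ratios differed by up to 2.00 times. All of these members came from the authors' list of sequences lower in HT, so the shared direction was fixed by that selection.

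rep-10, a 26-nt sequence, was the only member from the authors' table of candidates higher in HT. It had 751 reads in HT and 293 reads in HS, which is 27.7 and 11.2 TPM. Its fold change was 2.49, with a 95% interval of 2.17 to 2.85. The call was lost after scaling to the median ratio of the known records (1.995) or to their summed counts (1.91), and the fold change was 4.41 after scaling to the candidate total. It was the longest of the 54 candidates, at a length above the study's stated range for a mature sequence. Some other candidates fell below that range. The GC content of rep-10, 38.5%, was the lowest of the members. Its neighbours on the same strand were lower in HT. rep-9, 61 nt upstream, had 439 reads in HT and 914 reads in HS, a fold change of 0.466. rep-11 had 202 reads in HT and 373 reads in HS, a fold change of 0.525 with a 95% interval of 0.440 to 0.625. rep-10 has a single listed stem-loop, at A06:20156817-20156912 on the minus strand, with a folding energy of -23.6 kcal/mol.

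Members on the opposite strand were also lower in HT. rep-16 had the most reads of all members, 3344 in HT and 6904 in HS, and a fold change of 0.470. rep-6 had 298 reads in HT and 892 reads in HS, a fold change of 0.324. rep-12 had 234 reads in HT and 712 reads in HS, a fold change of 0.319. rep-17 had 245 reads in HT and 590 reads in HS, a fold change of 0.403. The 4 together had 4121 reads in HT and 9098 reads in HS, a fold change of 0.439 with a 95% interval of 0.423 to 0.456. The 20 members on the strand of miR2911 had 16085 reads in HT and 39244 reads in HS, a fold change of 0.398 with a 95% interval of 0.390 to 0.405. All 4 and 19 of the 20 came from the authors' list of sequences lower in HT, so the direction on both strands was fixed by that selection. The medians ran in the other order, 0.363 for the 4 and 0.407 for the 20, since rep-16 held most reads of the opposite strand, and the difference between strands was not tested.

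The other members on the strand of miR2911 gave the same direction. rep-13 had 809 reads in HT and 3165 reads in HS, and its fold change of 0.248 (95% interval 0.229 to 0.268) was close to that of rep-2. rep-5 had 1816 reads in HT and 4237 reads in HS, a fold change of 0.416. rep-14 had 771 reads in HT and 1734 reads in HS, and rep-15 had 688 in HT and 1335 in HS, with fold changes of 0.431 and 0.4998. rep-18 had 581 reads in HT and 1792 reads in HS, and rep-19 had 349 in HT and 951 in HS, with fold changes of 0.314 and 0.356. rep-8, rep-11 and rep-23 were lower in HT by less than the threshold of 2 and were not called with the scaling used here. They are in the authors' list of sequences lower in HT, and the study scaled its fold changes for candidates otherwise. rep-15 passed it narrowly, at 2.001 times higher in HS with an interval of 1.82 to 2.20. For rep-15 (candidate-27), the study reported that stem-loop quantitative RT-PCR gave a different pattern from sequencing, with constant expression between the lines. It named no such discrepancy for rep-12 (candidate-26), which it also measured.

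The median fold change of the members was 0.4002, against 0.514 for the 30 other candidates and 1.29 for the 69 known records with at least 50 reads. The 8 other candidates of 22 nt or less had a median of 0.470, with 7 lower in HT and 1 higher. The 22 other candidates of 23 nt or more had a median of 1.40, with 11 lower and 11 higher, and their summed reads were 20992 in HT and 20913 in HS. No test of the list was made, and nothing in these medians is particular to the repeat.

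In sequence, the members were mostly 21 nt long. Of the 24, 18 had 21 nt, 4 had 22 nt, and 1 each had 24 and 26 nt. Among the 30 other candidates, 21 had 24 nt and only 2 had 21 nt. A first base of T (U in the RNA), common among plant miRNAs, occurred in 3 members, in 3 of the other candidates and in 91 of the 169 known records (53.8%). C was the first base of 10 members and of 0 other candidates. The median GC content was 59.5% in the members and 44.4% in the other candidates, which are mostly longer. It was 55.8% in the 8 other candidates of 22 nt or less and 50% in the known records. miR2911 had 80% GC, and no known record had a higher value. rep-16 reached 81.0%.

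The listed stem-loops of the members folded with a mean energy of -46.2 ± 44.5 kcal/mol (SD over 128 records, most of them copies of each other), against -32.8 ± 16.01 over 153 records of the other candidates. The median was -29.1 kcal/mol for the members and -31.3 kcal/mol for the others, so the lower mean came from a few records. These belonged to rep-1 to rep-4, whose 8 records at A06:20132705-20132906 had energies from -231.3 to -203.7 kcal/mol. There, a stretch of 202 nt is listed on both strands and pairs with itself over a run of 96 nt without a mismatch. The 3 records of rep-2 to rep-4 at another place had -78 kcal/mol. Without these 4, the 117 records of the other 20 members had a mean of -34.1 ± 10.2 kcal/mol. The study's stated limit for a stem-loop was -20 kcal/mol or lower, and 1 record of the members missed it, the only one listed for rep-20, at -16.3 kcal/mol. Among the other candidates 36 records missed it.

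**Figure D4:**
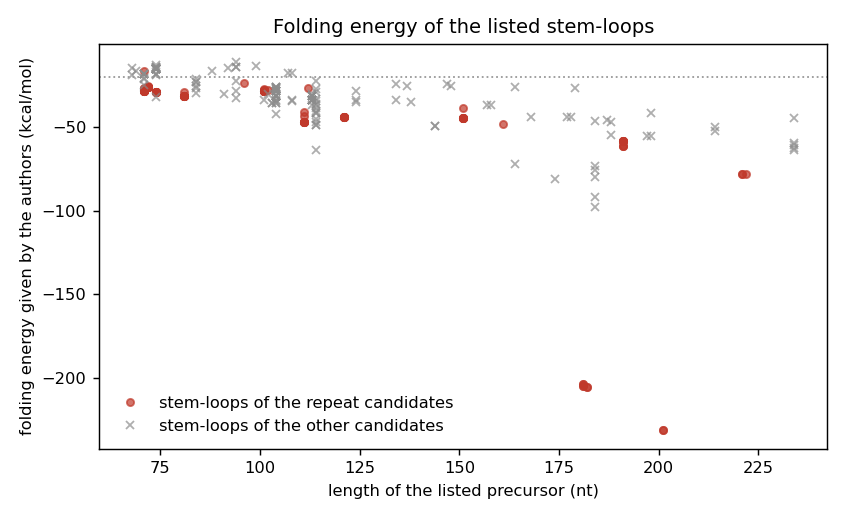
Folding energy given by the authors (kcal/mol, lower is more stable) against the length of the listed precursor (nt), with 1 point per stem-loop record, circles for the 24 repeat candidates and crosses for the other 30. The dotted line is at -20 kcal/mol. The circles near -204 to -231 kcal/mol are the records of rep-1 to rep-4 at the inverted repeat.

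The tables also list reads that could pair with a candidate as its miRNA*. Match lengths are those of the alignments listed with the first stem-loop of each candidate, and mismatches or gaps within them were not counted. Of the 24 members, 12 had no such match and 5 had a match of 16 nt or more. None of the 30 other candidates had a match of that length. The longest were 21 nt in rep-6 and 20 nt in rep-14 and in rep-17, and rep-12 and rep-15 had 17 nt. In these 5 members the longest exact complement of the candidate in its listed precursors was 7 nt. The study allowed mismatches between an miRNA and its miRNA*, so an imperfect partner could also leave only a short exact run. The matched reads themselves were not sought in the precursors, so whether they stand in the listed stem-loops was not tested. The study marks an miRNA* as found for candidate-26 (rep-12) and candidate-27 (rep-15). Only rep-1 to rep-4 had their own complement of 16 nt or more in a precursor, at the inverted repeat, and their longest listed match was 9 nt.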

How the data were processed

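The authors made and sequenced a small RNA library from shoot apexes of each genotype, 1 per line. Per the study's methods, adaptors and low-quality reads were removed, reads matching ribosomal and other structural RNAs of Rfam were discarded, and the rest were matched to plant miRNAs of miRBase and to the B. rapa genome (Brapa_sequence version 1.1 in the file header). Reads of ribosomal RNA that do not match Rfam entries would stay. Candidates were predicted by the authors with psRobot and mfold, with at most 20 stem-loops listed per sequence. The sources name different releases of miRBase.

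The deposited values used here are raw counts of reads per record and library, TPM per known miRNA, and folding energies (dG, kcal/mol). Their units are those named here. A log of this re-analysis enters them as other, because quoted line breaks stop a line-by-line check of units. The authors' TPM served only to derive the library totals (count divided by TPM, median over 34 records). 0 columns belonged to other samples. Columns with the authors' comparison of the libraries (log2 ratios and their p) were not used.

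Each sequence was counted once. Reads were compared with two-sided Fisher's exact tests (SciPy 1.17.1, Python 3.11.15) and Benjamini-Hochberg adjustment. Intervals are exact Clopper-Pearson intervals at 95%, or the exact conditional interval for a ratio of ratios, and cover counting error only. The floor of 3 reads was reached by no member. No model with dispersion was fitted. The comparisons with miR2911 and between overlapping members were planned with adjustment over the members, and were adjusted over all candidates instead. Listed precursors were joined by their coordinates, and RNAfold 2.7.2 was used as an alternative for energies. The tests were checked on simulated data. The members and lists were chosen with earlier results of these data known. All members are named, and non-members are named only if they lie in the same region or are the 3 known records nearest to miR2911 in reads. candidate-30 falls outside this rule and was named after its values were seen.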

Additional observations from a re-analysis of the deposited data

How the results depend on the processing

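No paired analysis was possible because there was 1 library per genotype, and for the same reason no library could be left out. With counts scaled to the total over the candidates, 4 members were called in place of 21, the fold change of the summed members was 0.720 in place of 0.405, below the threshold, and the median was 0.711 in place of 0.4002. The members themselves made up 42.2% of that total in HT and 58.7% in HS. Under the other scalings 23 or 24 members were called, the summed fold change lay between 0.311 and 0.364, and the median was 0.321 (median of ratios), 0.338 (trimmed mean of log2 ratios), 0.307 (sum of known record counts) and 0.359 (equal miR2911). The sign of the change was kept by all 23 lower members and the 1 higher member under these 5 scalings, but with the candidate total rep-11 (0.933, p = 0.437), rep-8 (p = 0.0499), rep-23 (p = 0.0333) and rep-15 (p = 0.0112) missed the p threshold of 0.01 by Fisher's exact test. miR2911 changed direction, to 0.855 with the sum of known counts, 0.894 with the median of ratios and 0.941 with the trimmed mean. rep-10 fell just below the threshold with the median of ratios (1.995) and the sum of known counts (1.91), and rep-8, rep-11 and rep-23 passed it under the 4 scalings other than the candidate total.

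With a fold change over 3, 7 members were called, and over 1.5, 24. With overlapping members summed, 14 of 15 sites were called and all 15 differed from miR2911. With Bonferroni adjustment 11 pairs differed, and with an overlap of at least 18 nt 12. The mean folding energy was -56.6 kcal/mol with 1 value per member, and -45.5 and -59.0 kcal/mol with RNAfold at 37 °C and 22 °C. The median spacing was 12888 nt with spacings over 20 kb left out. Chosen after seeing the data, the summed fold change was 0.393 without rep-10, 0.411 without rep-20 to rep-24 and 0.405 with candidate-30. The counts cannot separate a difference between lines from one between plants, RNA extracts or library preparations, which 1 library each does not tell apart.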
